A study of Mus musculus with 8 samples.

Results

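The regions described here are 2661 stretches of the mouse genome, each 2.54 kb wide, in which all 4 hippocampal libraries of the study held reads enriched for 5-hydroxymethylcytosine (5hmC). They were drawn from a list of 21990 hippocampal regions (12.1%) and cover 6.77 Mb. A region was taken if it lay on an autosome, had exactly this width, the commonest in the list, shared no base with a region listed for the heart ventricle, stood more than 10000 bp from the nearest other hippocampal region, and held 5 or more raw reads in each of the 4 pools. All libraries came from C57BL/6 mice. The sham group (0 Gy) and the group exposed to 1 Gy of protons each had 2 pools of hippocampal DNA, taken 20 weeks after exposure. Each pool mixed the DNA of several mice, and their age is not stated in the sources used here. The hippocampus holds neurons and glia together, and no cell type was separated, so a change in cell makeup and a change of 5hmC within cells cannot be told apart. The study asked whether proton exposure leaves a long-term mark on DNA modification in brain and heart.

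5hmC arises when enzymes of the TET family oxidise 5-methylcytosine, the methyl mark on cytosine that is set and copied by DNA methyltransferases. It is an intermediate in the removal of methylation, and it also persists as a mark of its own. Brain tissue is rich in it, above all in neurons, where it is commonly found over the bodies of active genes and at distal regulatory elements. Immunoprecipitation of DNA carrying 5hmC followed by sequencing (DIP-seq) counts reads over enriched stretches, so a value is a relative enrichment of a region within its library and not a fraction of modified cytosines. Positions are given in the mouse build mm9. Genes and sequences at these positions were not analysed here, because no annotation or genome of that build was used, so the labelled tissue was not checked against marker genes either.

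The regions were chosen by raw reads in these same pools, so their levels, directions and agreement are a description, and nothing below tests how the group as a whole differs from other regions. The criteria on chromosome, width, ventricular overlap and isolation left 12129 candidates, and the read minimum kept 2661 of them (21.9%). The minimum weighed very differently on the pools, since the reads in all listed hippocampal regions totalled 266361 and 110699 in sham pools 1 and 2 and 1912037 and 1628905 in irradiated pools 1 and 2. When scaled by these totals, 5 reads correspond to 18.8 counts scaled to a common library total (CPM) in sham pool 1, 45.2 in sham pool 2, 2.62 in irradiated pool 1 and 3.07 in irradiated pool 2. Of the candidates, 94.3% met the minimum in sham pool 1, 27.6% in sham pool 2, 99.5% in irradiated pool 1 and 99.4% in irradiated pool 2. Sham pool 2 alone kept out 8668 candidates, sham pool 1 alone 678, and each irradiated pool alone 3. Which regions were selected therefore depended mainly on the shallowest library.

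In raw reads the 2661 regions ran from 5 to 51 in sham pool 1 with a median of 11, and from 5 to 26 in sham pool 2 with a median of 7. In irradiated pool 1 they ran from 5 to 526 with a median of 61, and in irradiated pool 2 from 5 to 489 with a median of 55. Values below are in CPM scaled by the trimmed mean of M values (TMM, a scaling that sets the typical region equal between libraries). On that scale the medians were 34.8 CPM in sham pool 1, 60.1 in sham pool 2, 37.1 in irradiated pool 1 and 37.7 in irradiated pool 2. Sham pool 2 stood above the other 3 pools, which lay close together. In the 9109 otherwise matching candidates that missed the read minimum and were tested, the order of the sham pools was turned round, with medians of 41.1 CPM in sham pool 1 and 8.58 in sham pool 2, and the irradiated pools had medians of 32.8 and 32.9. The selected regions took 11.4% of all region reads of sham pool 1 and 18.5% of those of sham pool 2. In the irradiated pools the shares were 8.82% and 9.21%.

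**Figure D1:**
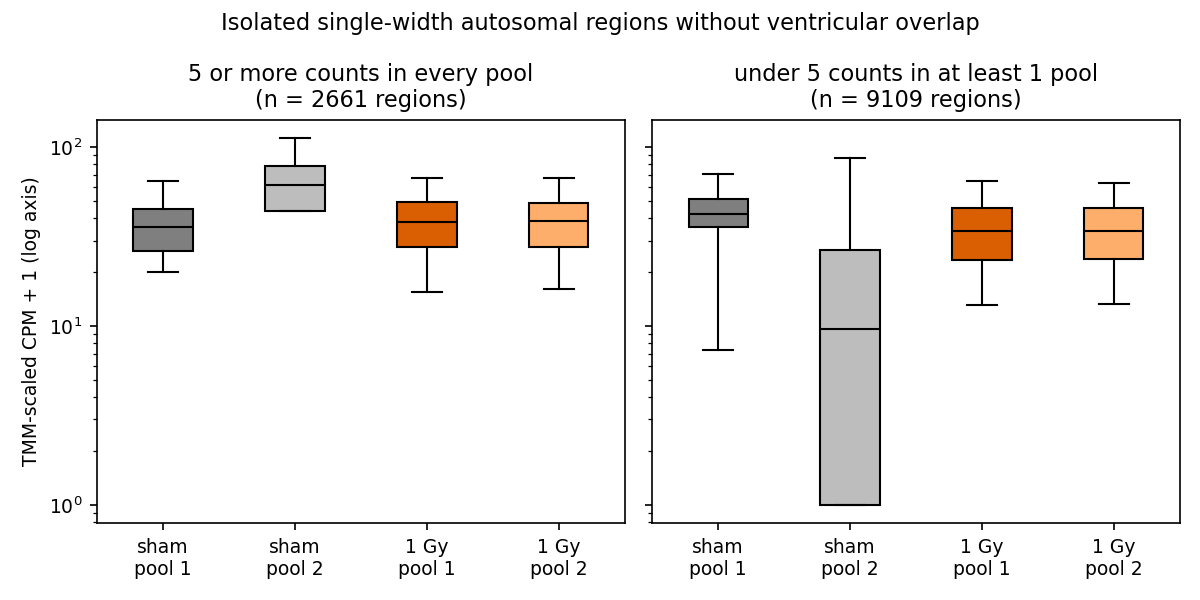
TMM-scaled CPM plus 1 (log axis) in each hippocampal pool for isolated autosomal regions of 2.54 kb that held 5 or more reads in every pool (left, n = 2661) and for those that did not (right, n = 9109 tested). Boxes span the quartiles with the median as a line, and whiskers the 5th to 95th percentile of regions. Sham pool 2 is the highest pool on the left (median 60.1 CPM) and the lowest on the right (8.58 CPM), while the other pools differ little between the panels.

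Most of the selected regions that separated the groups had lower 5hmC enrichment after 1 Gy. Both irradiated pools lay below both sham pools in 849 regions (31.9%) and above both in 192 (7.22%), and in 1620 (60.9%) the groups overlapped. Over all 21498 tested hippocampal regions the balance was the other way, with 8.46% lower and 22.6% higher in both irradiated pools. The median log2 fold change of 1 Gy over 0 Gy, from an edgeR fit across all tested regions, was -0.35 in the selected regions and 0.11 over all tested regions, a difference of -0.46. A negative log2 fold change was found for 1919 selected regions (72.1%), against 44.6% of all tested regions. The rule used these same reads, so the shares describe the selected regions and support no dose effect.

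This balance changed when sham pool 2 was left out and with the form of the read minimum, and its cause was not tested. Without sham pool 2 the median log2 fold change of the selected regions was 0.17, against 0.11 over all tested regions. Then 1214 selected regions (45.6%) were higher and 870 (32.7%) lower in both irradiated pools than in sham pool 1. Over all tested regions these shares were 45.9% and 39.5%. Without sham pool 1 the median was -0.76, against 0.71 over all tested regions. Of the selected regions 197 (7.40%) were then higher and 2123 (79.8%) lower than sham pool 2, against 59.4% and 31.7% of all tested regions. A minimum set at the same relative level in every pool, namely the 45.2 CPM that 5 reads represent in sham pool 2, kept 87 regions. Of these, 38 were higher and 6 were lower in both pools given 1 Gy, and the median log2 fold change was 0.22. In the irradiated pools 5 reads are 2.62 and 3.07 CPM, so a minimum of 45.2 CPM also selects high irradiated values. The 38 against 6 and the 0.22 are therefore in part fixed by it. Among the 662 selected regions with the most reads summed over the irradiated pools, 26.6% were higher and 2.87% lower. Their median log2 fold change was 0.24. The scaling of the libraries also moved the split. Among regions whose groups did not overlap, 81.6% were lower under TMM, 94.9% when DESeq2-type size factors were used (62 higher, 1152 lower), 96.1% when total counts were (57 and 1401) and 97.1% with loess offsets (25 and 841). The same share over all tested regions was 27.2% under TMM, 44.5% for DESeq2-type size factors, 53.5% for total counts and 39.8% for loess offsets. The median of all tested regions moved from 0.11 under TMM to -0.15, -0.25 and -0.04 under these 3 scalings, and relative to it the selected regions stood at -0.46, -0.45 and -0.72.

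**Figure D2:**
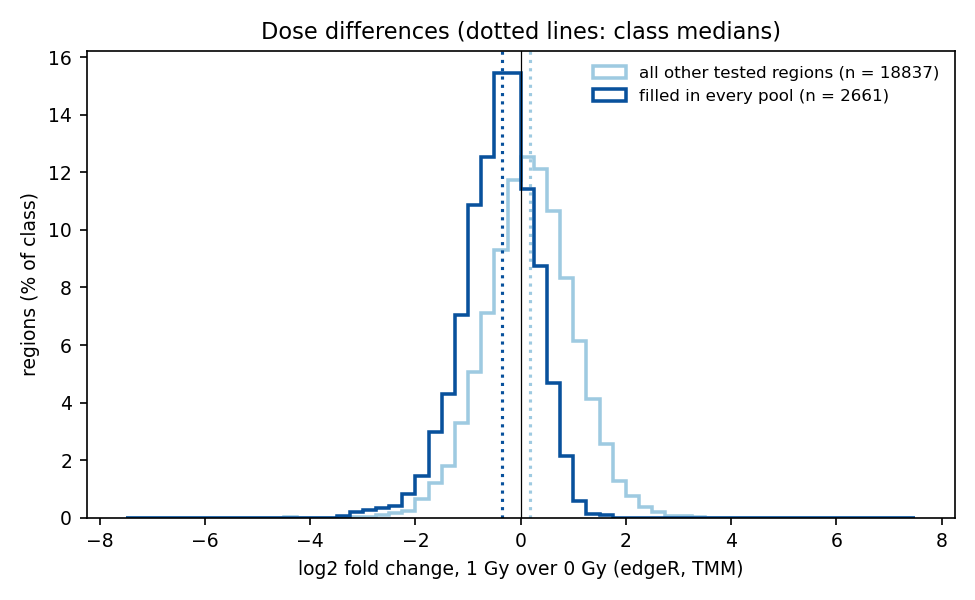
Distribution of log2 fold changes of 1 Gy over 0 Gy (edgeR, TMM scaling) in percent of regions per bin, for the 2661 regions filled in every pool and the 18837 other tested regions, with class medians as dotted lines. The filled regions are shifted to the left, with a median of -0.35 against 0.19.

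No single selected region passed the false discovery rate (FDR) of 0.05 in edgeR, and 0% of all tested regions did. An unadjusted p under 0.05 was found for 48 selected regions (1.8%), all with a lower value after 1 Gy, where 1.04% of all tested regions had such a p (0.312% as lower ones). In other settings that number moved, given here with the number among all tested regions in brackets. It was 9 (61) with the replicate block and 36 (92) after loess offsets. Under size factors of the DESeq2 type it was 98 (229) and under total-count scaling 110 (228), each of 21498 tested regions. In DESeq2 it was 259 (810 of 21990). DESeq2 called 1 region, 0.00455% of those it tested, and that region was among the selected ones. The pools of a group differed widely, with a biological coefficient of variation of 0.602, and log2 fold changes of the selected regions had a median standard error of 0.81. With 1 sham pool left out, calls appeared, but among the selected regions mostly not the same ones. How many calls were shared over all tested regions was not counted. Without sham pool 1 edgeR called a smaller share of the selected regions than of all tested regions, and each selected region called was lower. Without sham pool 2 the share called was again smaller among the selected regions, with calls in both directions. Directions of the calls over all tested regions were not counted. Just 13 selected regions, all lower, were called in the same direction both times, and without either irradiated pool none was called.

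The regions with the largest lower values held as few reads in the deep irradiated libraries as in the shallow sham libraries. On chromosome 8 at 5134701 to 5137244 the reads numbered 19 and 9 for sham and 12 and 10 after 1 Gy, which gives 60.1 and 77.2 CPM against 7.29 and 6.85 CPM, or 68.7 ± 12.1 against 7.07 ± 0.313 (SD, n = 2 pools each). Both groups were tight there, and the gap between them was far wider than the spread of either. Its log2 fold change was -3.23 (SE 0.80, edgeR FDR 1.00), and it is the region that DESeq2 called (log2 fold change -3.50, adjusted p = 0.0207). It lay 379443 bp from the nearest other hippocampal region.

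A region on chromosome 13 at 87559369 to 87561912 also had sham pools close to each other, with 20 and 6 reads in sham and 13 and 7 in irradiated pools. Its sham pools stood at 63.3 and 51.5 CPM and its irradiated pools at 7.90 and 4.79 CPM, a log2 fold change of -3.16 (SE 1.00). On chromosome 2 at 68931100 to 68933643 the reads were 16 and 8 against 15 and 7, or 59.6 CPM ± 12.8 against 6.95 ± 3.05 (SD, n = 2), a log2 fold change of -3.04. In these 3 regions the sham pools lay within 0.44 log2 units of each other (-0.36, 0.30 and -0.44, pool 1 minus pool 2). The irradiated pools differed by 0.09, 0.72 and 0.93 log2 units, and all of them lay far under the lower quartile of the selected regions, 26.7 CPM in either pool.

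The other regions of this kind had sham pools that disagreed more. On chromosome 1 at 33112996 to 33115539 the sham reads were 8 and 12 and those after 1 Gy 7 and 10, giving 25.3 and 103 CPM against 4.25 and 6.85 CPM. Its log2 fold change of -3.41 was the lowest of all selected regions (SE 1.19). On chromosome 16 at 53504758 to 53507301 the reads were 12 and 9 against 8 and 9, with 38.0 and 77.2 CPM against 4.86 and 6.16 CPM and a log2 fold change of -3.30. This region was also the most isolated of all, 863078 bp from its nearest neighbour. On chromosome 12 at 61451140 to 61453683 the reads were 18 and 15 against 22 and 9, with 56.9 and 128.7 CPM against 13.4 and 6.16 CPM and a log2 fold change of -3.17. In all 6 regions the raw reads of the groups were of like number, and the difference appears once reads are scaled by depth. Sham reads per unit of depth were 9.14 times those of the irradiated pools on chromosome 8, with a 95% counting interval of 5.04 to 16.8, and between 7.64 and 9.33 times in the 5 others. These 6 were picked by their log2 fold change in the same pools, so neither this interval, a kept sign nor a call is separate support. The log2 fold change of all 6 was negative under each of the 10 alternatives that tested them, from -4.22 to -2.14. With loess offsets the groups did not overlap in 5 of the 6. Without sham pool 1, and again without sham pool 2, edgeR called 5 of the 6.

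The regions with the largest higher values after 1 Gy had smaller differences, with log2 fold changes of 1.37 to 1.62. The first of them, on chromosome 3 at 56378450 to 56380993, held 17 and 19 reads in sham and 526 and 489 in irradiated pools. Its values were 53.8 and 163 CPM in the sham pools and 319.6 and 335 CPM in the irradiated pools, or 108 ± 77.3 against 327 ± 10.8 (SD, n = 2). The irradiated pools lay close together, whereas sham pool 1 minus sham pool 2 was -1.60 log2 units. The log2 fold change was 1.62 (SE 0.91, edgeR FDR 1.00), 2.63 without sham pool 2 and 0.07 with loess offsets. It was also the selected region with the highest reads in either irradiated pool, and it was 1 of the 3 with the largest smallest count.

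The 5 others stood at or near the read minimum in the sham pools. On chromosome 14 at 69909086 to 69911629 the reads were 9 and 5 against 172 and 139, with 28.5 and 42.9 CPM in sham and 104.5 and 95.2 CPM in irradiated pools and a log2 fold change of 1.51. On chromosome 13 at 25081710 to 25084253 they were 8 and 5 against 187 and 101, with irradiated pools at 114 and 69.2 CPM. The remaining 3 lay on chromosome 8 (128264315 to 128266858), on chromosome 5 (149351563 to 149354106) and on chromosome 9 (71645365 to 71647908). Each of them held 5 reads in both sham pools, 15.8 and 42.9 CPM. Their irradiated pools held 143 and 101, 126 and 99, and 127 and 92 reads. A count of 5 has a 95% Poisson interval of 1.62 to 11.7 counts, which spans 5.14 to 36.9 CPM in sham pool 1 and 13.9 to 100.1 CPM in sham pool 2. In these 3 regions the irradiated values, 63.0 to 86.9 CPM, lie above the first interval and inside the second. None of the 6 passed in edgeR with all pools or in DESeq2. All 6 passed without sham pool 2 and none without sham pool 1.

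**Figure D3:**
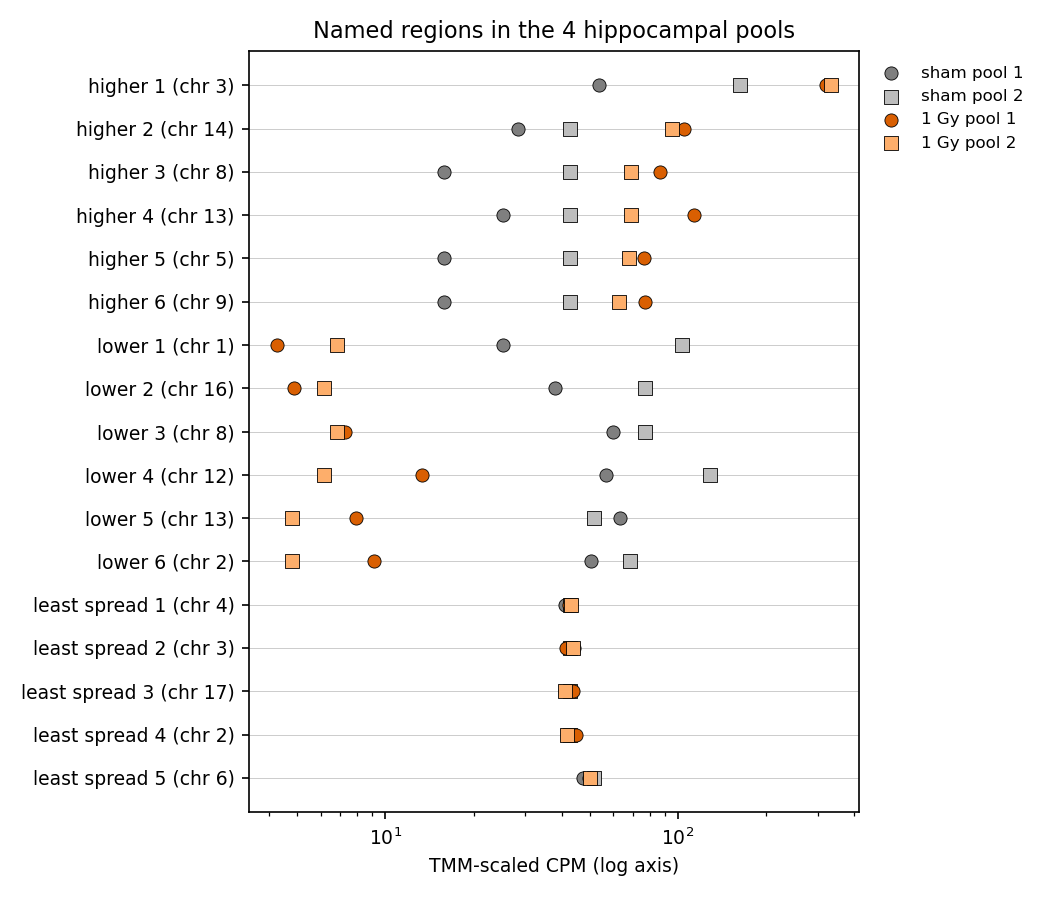
TMM-scaled CPM (log axis) of the 4 hippocampal pools in the 6 regions with the largest higher values, the 6 with the largest lower values and the 5 with the least spread over pools, labelled by rank and chromosome. In the lower regions the irradiated pools sit at 4.25 to 13.4 CPM and the sham pools at 25.3 CPM or more, whereas in the higher regions the sham pools sit below the irradiated pools by a smaller distance, and in the regions of least spread all pools lie between 41.1 and 51.5 CPM.

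The irradiated pools ranked the selected regions alike and the sham pools did not. Spearman correlations of reads across the 2661 regions describe the libraries only, since regions are not replicates. The value was 0.585 within the irradiated pair and -0.196 within the sham pair. It was -0.0397 and -0.0426 for sham pool 1 with either irradiated pool, and 0.0193 and 0.0447 for sham pool 2. The chi-square per degree of freedom, which is near 1 where 2 libraries differ by counting error alone, was 1.36 for the sham pair and 4.0 for the irradiated pair. Over all tested regions the order was turned, with 6.60 for the sham pair and 4.42 for the irradiated pair. Cutting each pool at 5 reads narrows the range of the shallow pools, so the 1.36 does not show closer agreement of the sham pools. The Spearman correlation over all tested regions was -0.525 for the sham pools and 0.700 for the irradiated pools. The median absolute log2 difference was 0.85 for the sham pair and 0.37 for the irradiated pair. The irradiated pools lay within 1 log2 unit of each other in 2424 regions (91.1%) and the sham pools in 1554 (58.4%). The sham pools were the farther apart of the groups in 1944 regions (73.1%). Counting error weighs more at the sham medians of 11 and 7 reads than at the irradiated medians of 61 and 55. It lowers the sham correlation toward none and widens the sham differences, and its part in these values was not tested.

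The disagreement of the sham pools had a direction, which is in part fixed by the read minimum. That minimum is 42.9 CPM in sham pool 2 and 15.8 CPM in sham pool 1. Sham pool 1 exceeded sham pool 2 in 326 of the selected regions (12.3%), against 60.0% of all tested regions, while irradiated pool 1 exceeded irradiated pool 2 in 49.9%. Sham pool 2 exceeded irradiated pools 1 and 2 in 85.2% and 84.6% of the selected regions, and sham pool 1 did so in 44.8% and 45.1%. In 785 regions (29.5%) both irradiated pools fell between a high sham pool 2 and a low sham pool 1, and in 19 (0.714%) the reverse held. In the otherwise matching regions that missed the minimum, the corresponding shares were 7.0% and 48.2%. The mean log2 difference between the doses exceeded both within-group pool differences in 698 regions (26.2%), of which 611 were lower and 87 higher after 1 Gy. The same share over all tested regions was not computed. The rule used these same reads, so this split and the shares above are a description only.

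**Figure D4:**
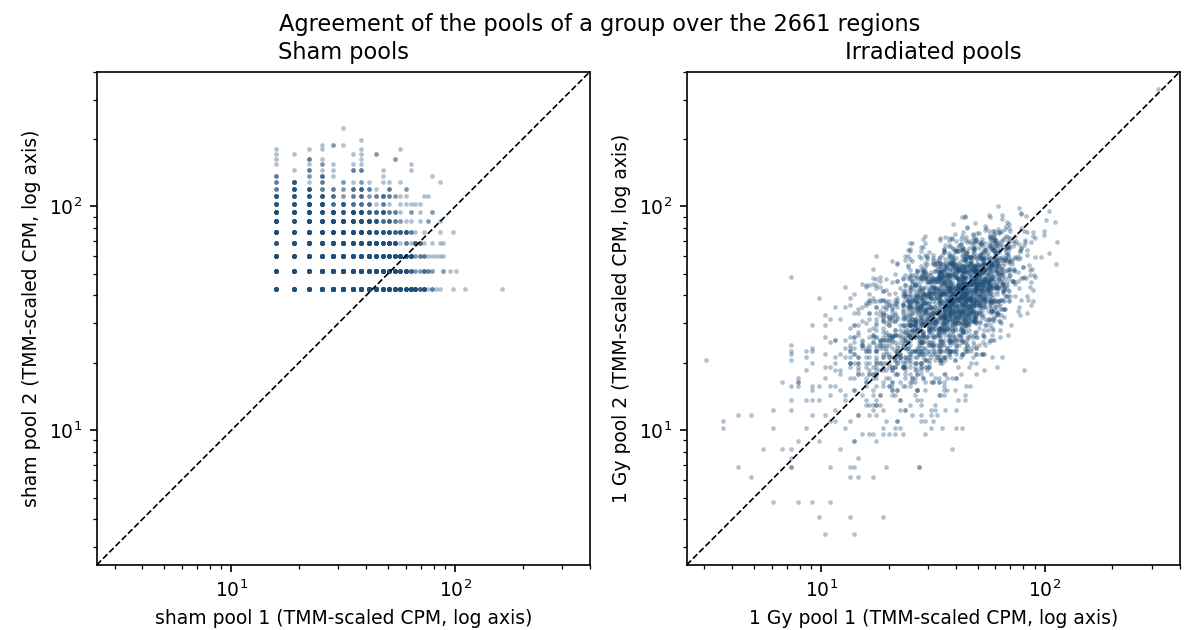
TMM-scaled CPM of the 2661 regions in sham pool 1 against sham pool 2 (left) and irradiated pool 1 against irradiated pool 2 (right), both on log axes with the line of equality dashed. The irradiated pools scatter along the line, while the sham pools form a block bounded at 15.8 and 42.9 CPM, the value of 5 reads in each, that lies mostly above the line.

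The regions in which the sham pools were farthest apart had 5 reads in sham pool 1 and 19 to 21 in sham pool 2. On chromosome 18 at 5029846 to 5032389 the sham reads were 5 and 21 and those after 1 Gy 78 and 57. This gave 15.8 and 180.2 CPM in the sham pools around 47.4 and 39.0 CPM in the irradiated pools, a sham difference of -3.51 log2 units. Those on chromosome 9 at 99371055 to 99373598 (5 and 20 reads) and chromosome 2 at 27981644 to 27984187 (5 and 19 reads) differed by -3.44 and -3.37 log2 units, and their irradiated pools lay between 36.3 and 52.9 CPM. In all 3 the irradiated pools lay close together, between the sham pools.

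Large differences between the irradiated pools were rarer and came with low reads in 1 of them. On chromosome 1 at 142311001 to 142313544 the irradiated pools held 5 and 30 reads, 3.04 and 20.5 CPM, a difference of -2.76 log2 units, and the sham pools held 10 and 9 reads. On chromosome 6 at 51770499 to 51773042 the irradiated pools held 12 and 71 reads and the sham pools 6 and 5, and the irradiated difference was -2.74 log2 units. On chromosome 1 at 191191667 to 191194210 the order of the irradiated pools was turned, with 63 and 12 reads against 21 and 5 in the sham pools, a difference of 2.22 log2 units. In the chromosome 6 region the irradiated pools, at 7.29 and 48.6 CPM, lay on either side of both sham pools (19.0 and 42.9 CPM), while in both chromosome 1 regions they lay below them.

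Some regions had nearly the same TMM-scaled level in every pool. The least spread was found on chromosome 4 at 134682082 to 134684625, where the reads of 13 and 5 in sham and 70 and 63 in irradiated pools gave 41.1, 42.9, 42.5 and 43.1 CPM. Next came regions on chromosome 3 (131031733 to 131034276), on chromosome 17 (6970958 to 6973501) and on chromosome 2 (104224320 to 104226863), each with 5 reads in sham pool 2 and mean levels of 42.2 to 43.5 CPM. The fifth, on chromosome 6 at 148348206 to 148350749, had 15, 6, 82 and 73 reads and a mean of 49.7 CPM ± 1.67 (SD, n = 4 pools). The first 4 of these 5 therefore sat at the level that the minimum allows in sham pool 2. The evenness depended on the scaling: the SD of log2 CPM over the pools was 0.03 to 0.05 in these 5 regions under TMM, 0.14 to 0.17 with DESeq2-type size factors, 0.19 to 0.25 when scaled by total counts and 0.30 to 0.33 after loess offsets. On chromosome 4 the counting interval of the ratio of irradiated to sham reads still ran from 0.627 to 1.79.

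High mean levels mostly went with a high sham pool 2. This is in part fixed by the ranking, because that pool enters the mean and a read there weighs most. Behind the chromosome 3 region at 56378450 (mean 218 CPM), the next highest was on chromosome 10 at 41169703 to 41172246, with 10 and 26 reads in sham and 79 and 88 in irradiated pools, or 31.6, 223, 48.0 and 60.3 CPM. On chromosome 4 at 148322175 to 148324718 sham pool 2 stood at 189 CPM, and the 3 other pools at 25.3, 58.9 and 71.9 CPM. Those on chromosome 12 (114215228 to 114217771) and chromosome 8 (26292225 to 26294768) had means of 85.6 and 84.6 CPM, with sham pool 2 at 120.1 and 137 CPM. In these 4 regions the highest pool was sham pool 2, and the groups overlapped in 3 of them. The exception, on chromosome 8, had both irradiated pools (58.3 and 63.7 CPM) below both sham pools (79.1 and 137 CPM).

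Regions well above the read minimum in every pool were few. The smallest of the 4 counts was 5 in 794 regions (29.8%), and its highest value was 18, on chromosome 6 at 117861076 to 117863619 (20 and 18 reads in sham, 66 and 71 in irradiated pools) and on chromosome 7 at 144640562 to 144643105 (18 and 21 against 55 and 72). Both had irradiated pools below both sham pools, at 40.1 and 48.6 CPM against 63.3 and 154.5 CPM on chromosome 6 and at 33.4 and 49.3 CPM against 56.9 and 180.2 CPM on chromosome 7. Sham pool 2 held the smallest count, alone or tied, in 2103 regions (79.0%), sham pool 1 in 698 (26.2%), irradiated pool 1 in 6 and irradiated pool 2 in 10.

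At the edge of the rule, 853 candidates had a smallest count of 4 and were left out. Just inside, 30.1% of the 794 regions were lower and 16.1% higher in both irradiated pools, and the median log2 fold change was -0.10. Just outside, 23.3% were lower and 24.9% higher, with a median of -0.07. Examples inside are chromosome 1 at 3499203 to 3501746, with 13 and 5 reads in sham and 25 and 35 in irradiated pools, and chromosome 1 at 6386134 to 6388677, with 11 and 5 against 39 and 18. Outside stand chromosome 1 at 11014852 to 11017395, with 18 and 4 against 89 and 54, and chromosome 1 at 13788084 to 13790627, with 11 and 4 against 6 and 36. Further in, the direction followed the sham pool 2 count. The median log2 fold change was -0.12 in the 1201 regions with 5 to 6 reads in sham pool 2, -0.34 in the 889 with 7 to 9, -0.66 in the 488 with 10 to 14 and -0.95 in the 83 with 15 or more, as it must in part, because that count enters the fold change. The irradiated medians were nearly level across these classes, at 37.1 to 38.3 CPM in pool 1 and 36.3 to 42.5 CPM in pool 2.

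The more isolated of the selected regions had lower irradiated levels. The gap to the nearest other hippocampal region had a median of 36611 bp. In the 671 regions with a gap of 10000 to 20000 bp the irradiated medians were 40.7 and 40.4 CPM, in the 1014 with 20000 to 50000 bp 38.9 and 39.0 CPM, in the 580 with 50000 to 100000 bp 34.6 and 35.6 CPM, and in the 396 beyond 100000 bp 28.0 and 29.4 CPM. The sham medians were 34.8 CPM in pool 1 and 60.1 CPM in pool 2 in each of the 4 classes. These are 11 and 7 reads, close to the minimum of 5, so they had little room to differ. Both irradiated pools were below both sham pools in 25.3%, 26.7%, 36.0% and 50.3% of the classes in this order, and above both in 10.1%, 8.28%, 4.31% and 3.79%. Over all tested regions, at any gap, 8.46% were lower and 22.6% higher. Shares of all tested regions by gap were not computed, so the trend is not shown to be particular to the selected regions. Taken against sham pool 1 alone, the share with both irradiated pools lower went from 26.5% in the least to 51.8% in the most isolated class, and against sham pool 2 alone from 74.5% to 86.1%. Before the read minimum, the 12129 candidates also had lower irradiated reads at larger gaps, with medians of 65 and 56 reads in the irradiated pools at the smallest gaps and 38 and 33 beyond 100000 bp. In sham pool 2 the median was also lower at the largest gaps, 1 read against 2, while in sham pool 1 it was 14 against 13. The share of candidates filled in every pool was 25.3% at the smallest gaps and 16.5% at the largest. This share depended mainly on the reads of sham pool 2, and regions are not replicates, so the difference was not tested. The gap classes were chosen after the values had been seen.

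**Figure D5:**
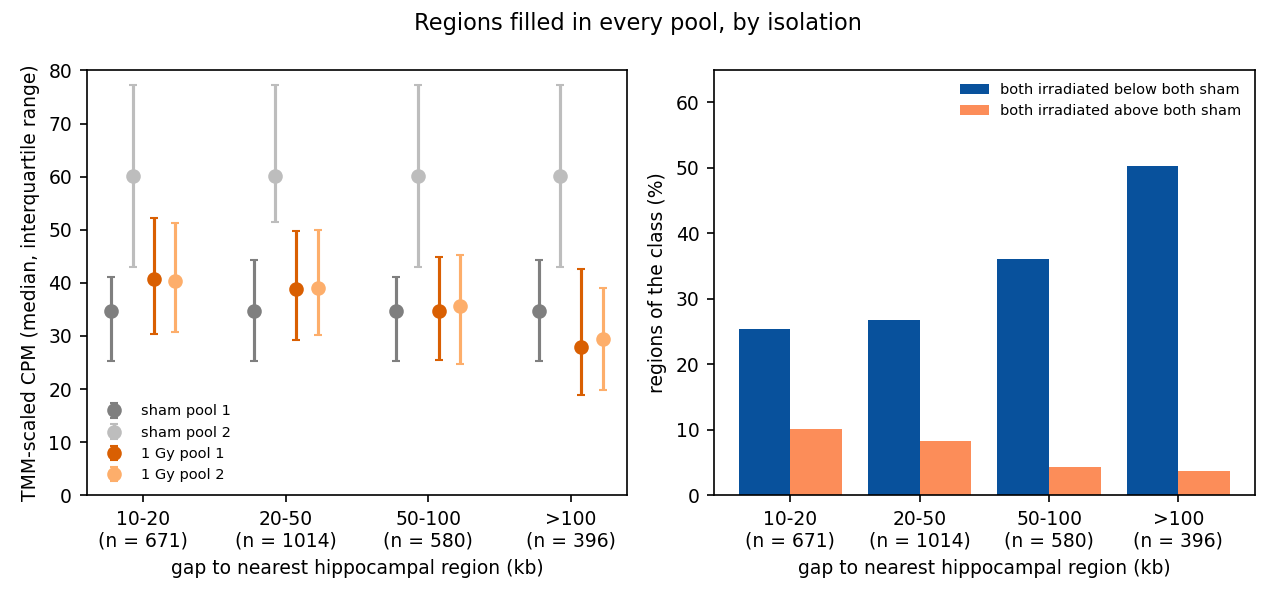
Regions filled in every pool, divided by the gap to the nearest other hippocampal region in kb. The left panel gives the median and interquartile range of TMM-scaled CPM in each pool, and the right panel the percent of regions whose irradiated pools both lay below or both above the sham pools. The sham medians stay at 34.8 and 60.1 CPM while the irradiated medians go from 40.7 and 40.4 CPM to 28.0 and 29.4 CPM, and the lower share goes from 25.3% to 50.3%.

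The selected regions were spread over all 19 autosomes, at 0.859 per Mb (chromosome 15) to 1.58 per Mb (chromosome 11) with a median of 1.10. Chromosome 11 had the highest share of candidates filled in every pool, 27.0%, and chromosome 15 the lowest, 17.1%, a difference that was not tested. More regions were lower than higher in both irradiated pools on each of the 19 autosomes, and the median log2 fold change ran from -0.51 on chromosome 12 to -0.25 on chromosome 7. On every autosome it was below that of the other tested regions of the same chromosome. The read minimum chose regions by the same pools on every chromosome, so the chromosomes are no separate support for a direction. Neighbouring selected regions, a median of 475012.5 bp apart, had the same sign of log2 fold change in 1631 of 2642 pairs (61.7%), where the members' own shares of each sign give 59.8%. The Spearman correlation of their log2 fold changes was 0.0920.

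Sham pool 1 showed a step in its reads that most of the selected regions did not share. In the otherwise matching candidates that missed the minimum, 484 regions had 11 reads in sham pool 1 and 1217 had 12, and 74.4% had 12 or more. In the selected regions 236 had 11 reads and 252 had 12, and 42.6% had 12 or more. The 1133 selected regions with 12 or more reads in sham pool 1 were lower in both irradiated pools in 54.9% and higher in 6.35%, with a median log2 fold change of -0.54. The 1528 with fewer were lower in 14.9% and higher in 7.85%, with a median of -0.20. The sham pool 1 count enters these comparisons, so the contrast is in part fixed by the split itself. Irradiated medians were alike in both, at 60 and 54 reads against 62 and 55. The part of this step in the results was not tested.

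Other autosomal regions filled in every pool had other shares. Of 1082 regions of the same width and without ventricular overlap, but with a neighbour within 10000 bp, 21.8% were lower and 11.6% higher in both irradiated pools. Of 262 of the same width that overlapped a ventricular region, at any gap, 16.4% were lower and 16.8% higher. Of 1810 wider autosomal regions, at any gap and with or without ventricular overlap, 5.03% were lower and 23.1% higher. Their sham medians were similar, with 60.1, 60.1 and 68.7 CPM in sham pool 2, while the medians of irradiated pool 1 were 43.1, 48.6 and 58.3 CPM, against 37.1 CPM in the selected regions. The wider regions also had the lowest median in sham pool 1, 25.3 CPM. The last 2 of these classes differ from the selected regions in more than 1 criterion, and the differences between classes were not tested.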

How the data were processed

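The members and lists were chosen with earlier results of these data known. The files hold the authors' raw counts of reads over merged peaks, 1 list per tissue. Tools listed in the submitters' processing notes are CASAVA 1.8.2, Bowtie 1.0.0 and DESeq2, with build mm9, and no roles are stated. How peaks were called and merged, and whether duplicates were removed or an input was used, are points not given in the sources used here. Files were read as BED intervals, so 1 was added to each start. Ventricular files served for their coordinates. Whether 5 mice formed each pool or were divided between the pools of a dose is not given, so p-values measure the spread between pools.

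All hippocampal regions were fitted together with edgeR 4.0.16 (R 4.3.3): TMM, filterByExpr (21498 regions kept, all members among them), a quasi-likelihood F-test of 1 Gy against 0 Gy and Benjamini-Hochberg adjustment. Alternatives used DESeq2 1.42.0, other scalings, filters, gaps and read minima, each library left out, and the replicate number as a block. Named regions are those with the largest non-overlapping log2 fold changes (6 each way), highest mean CPM (5), smallest SD (5), widest pool differences (3 per dose), largest smallest count (3) and the first at the threshold (2 each side). The fit was tested on simulated data, and overlaps and gaps were checked with bedtools 2.31.1. At simulated log2 changes of -2 and 2 it called 1 of 43 and 0 of 50 tested regions. At -4 and 4 it called 11 of 31 and 21 of 50. The absence of a call is therefore no evidence that a region did not change. Intervals cover counting error only.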

Additional observations from a re-analysis of the deposited data

How the results depend on the processing

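The number of selected regions was 4591 at 3 or more reads in every pool, 263 at 10 or more, 976 with a gap above 50000 bp and 87 with the equal CPM minimum, which was added after the data had been seen. Regions higher in both irradiated pools numbered 697 (15.2%), 1 (0.380%), 40 (4.10%) and 38 (43.7%) in these 4 settings. Lower ones numbered 1210 (26.4%), 107 (40.7%), 408 (41.8%) and 6 (6.90%). Over all tested regions 22.6% were higher and 8.46% lower. The higher ones numbered 62 (2.33%, DESeq2-type size factors), 57 (2.14%, scaling by total counts) and 25 (0.939%, loess offsets). Of all tested regions 15.4%, 12.5% and 17.1% were higher in these settings. With total counts the lower ones numbered 1401 (52.6%), against 14.4% of all tested regions. With 1 library left out the higher count ranged from 197 (7.40%) to 1214 (45.6%) and the lower count from 870 (32.7%) to 2123 (79.8%). Over all tested regions the higher share then ran from 30.4% to 59.4% and the lower share from 11.4% to 39.5%. The median log2 fold change ranged from -0.76 to 0.17 with 1 library left out. It was -0.76 with loess offsets, -0.84 at 10 or more reads and 0.22 with the equal CPM minimum. The results with the equal CPM minimum are in part fixed, because it also selects high values in the irradiated pools. The reversal to 0.17 came without sham pool 2, where all tested regions had a median of 0.11. The cause was not tested. The median difference between the sham pools was 1.30 log2 units at 10 or more reads. DESeq2 called 1 region, both among the selected and over all regions. With 1 library left out, edgeR called 0 to 248 selected and 0 to 4533 of all tested regions. A lone remaining pool is then assumed to vary like the other dose.

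Pools of both doses share replicate numbers, but the deviations of same-numbered pools from their group means correlated at 0.0129 over the selected regions, so the numbers are not taken to pair them. With the replicate block edgeR called 0 selected regions and 0 of all tested ones, and the median log2 fold change was -0.31. An unadjusted p under 0.05 was then found for 61 of all tested regions in place of 224. Depth limits single regions most in sham pool 2, where a count of 0 would allow up to 3 counts, or 27.1 CPM when scaled by the total of all listed regions.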
